A study of Rattus norvegicus with 12 samples.

Results

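Serpins are a family of proteins that share 1 fold, and most of them block serine proteases by offering an exposed loop that the protease cuts and is then trapped on. The liver is the main source of the serpins of blood plasma, which restrain clotting, fibrinolysis, complement and the proteases of white blood cells. Clade B serpins lack a classical signal peptide and act mostly inside cells, clade E members act mostly outside cells, and Serpinh1 (HSP47) is a chaperone of procollagen in the endoplasmic reticulum that blocks no protease. A few members carry hormones or have other tasks.

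The members were all genes whose array name began with Serpin, a clade letter from a to i and a digit, which gave 37 of 35833 gene names and 45 of 45598 probes. They comprised 12 genes of clade A, 14 of clade B, 1 of clade C, 1 of clade D, 3 of clade E, 2 of clade F, 1 of clade G, 1 of clade H and 2 of clade I. Clades A, C, D and F, mostly plasma proteins made by hepatocytes, held 16 genes and were set beside clades B, E, G, H and I with 21. Serping1, the C1 inhibitor, is a plasma protein too but falls among the second set by its clade. The gene called Serpinb6 on the array is Serpinb6a in the RefSeq table.

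The RNA of 12 samples, 3 per group, was read on Agilent arrays in a single colour and came from livers of F344 rats positive for dipeptidylpeptidase IV. Small hepatocytes, hepatocytic progenitor cells selected for CD44 on day 9 after plating and raised on Matrigel, were replated at passage 2 for 3 h on 1 of 3 coatings. The coating was laminin-111 in the LN111 group, laminin-511 in the LN511 group and Matrigel, a basement membrane extract, in the Mat group. All 3 cultured groups shared a serum-free medium with albumin, nicotinamide, an ascorbate phosphate, dexamethasone, insulin, transferrin and selenium, epidermal growth factor and antibiotics. Mature hepatocytes freshly isolated from liver (MH), never cultured, were the control, so culture, passage, medium and cell type differ together between the cultured groups and MH. Nothing in the labels says that replicates were separate animals or cultures. The p-values then speak of the spread among these samples, part or all of which may be technical. In RNA of cell populations, fewer cells of a type and less RNA per cell cannot be told apart.

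Each array had 58717 spots other than controls, of which 52.18% to 62.75% stood well above background and 0 were saturated. The number of arrays, not a read depth, limits the precision. LN111 replicate 3 had 1126 spots with an outlier mark, against 350 to 499 on the other arrays. Slide 1 held Mat replicates 1 and 2 and all MH arrays, and slide 2 held all LN111 and LN511 arrays and Mat replicate 3, so the laminin groups and MH shared no slide. Levels below are log2 signals relative to the 75th percentile of the array and are compared within a probe only. A summed level of 8 hepatocyte markers lay between 7.36 and 8.64 on the cultured arrays and between 9.67 and 9.84 on MH, so hepatocyte transcripts were present in every group, with 7 of the 8 markers lower in cultured cells (median -1.96). Alb, a defining marker, was well above background on all 9 cultured and all 3 MH arrays. A sum of 8 progenitor and biliary markers was 4.32 to 6.58 on cultured arrays and -0.53 to -0.33 on MH.

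Probes behind large differences and behind the 1 gene whose probes moved in opposite directions are shown here, as the targets to which each value below refers. Positions are those of the array files in build rn4, sequences run 5′ to 3′, and exon, intron or UTR annotation of that build was not used here. The Serpina3c probe read the largest decrease, and the Serpinb2 and Serpinh1 probes read differences between coatings.
Serpina3c, chr6:128379719-128379778, minus strand: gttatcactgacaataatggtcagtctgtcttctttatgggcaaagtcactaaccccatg
Serpina1, chr6:127999839-128000771, minus strand, listed over 933 bases: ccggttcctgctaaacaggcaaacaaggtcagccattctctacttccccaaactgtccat
Serpinc1, chr13:76558291-76558350, plus strand: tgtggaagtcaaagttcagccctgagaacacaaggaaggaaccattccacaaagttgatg
Serpinb2, chr13:13640735-13640794, plus strand: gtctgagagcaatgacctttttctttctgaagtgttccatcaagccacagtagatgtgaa
Serpinh1, chr1:156667167-156667226, minus strand: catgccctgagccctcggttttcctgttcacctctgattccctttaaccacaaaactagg
Serpinb9 first probe, chr17:37778646-37778705, minus strand: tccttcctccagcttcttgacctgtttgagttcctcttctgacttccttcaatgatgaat
Serpinb9 second probe, chr17:37782600-37784834, minus strand, listed over 2235 bases: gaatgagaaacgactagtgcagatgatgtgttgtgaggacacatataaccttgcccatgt
Compared base by base without gaps, the closest probes of 2 different members, Serpinb13 and Serpinb3, matched at 40 of 60 positions. Neither of those genes was tested.

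To enter a fit, a gene needed a probe that stood well above background on each of the 3 arrays of some group. With MH, 25 of the 37 members entered, 14 of 16 in clades A, C, D and F and 11 of 21 in the other clades. Of these, 18 passed the filter through cultured groups and MH alike, 3 through MH alone (Serpina3c, Serpina5 and Serpine2) and 4 through cultured groups alone (Serpina12, Serpinb1a and Serpinb2 among them), so these 7 had to differ to some degree. The 12 members that did not enter were Serpina1f, Serpina9, Serpinb3, Serpinb5, Serpinb9d, Serpinb10, Serpinb11, Serpinb12, Serpinb13, Serpine3, Serpini1 and Serpini2. Among them are neuroserpin (Serpini1), a serpin of neurons, and Serpinb5 (maspin) and Serpinb13, serpins of stratified epithelia. Serpini1 was well above background on 4 of the 9 cultured arrays and on 0 of 3 MH arrays.

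The first question was how the serpins of small hepatocytes on the 3 coatings differ from those of mature hepatocytes. Most serpins of clades A, C, D and F fell: 12 were lower and 1 was higher in cultured cells, with a median log2 difference of -4.49 over 14 genes. In clades B, E, G, H and I, 6 were higher and 4 lower, with a median of 1.77 over 11 genes, and the median of all 18915 genes tested was -0.18. In total 23 of 25 members passed the threshold of 0.05 (limma, Benjamini-Hochberg adjusted p), beside 72.8% of all genes tested. Across all genes 30.8% were higher and 42% lower, so the count of calls by itself does not set the serpins apart.

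**Figure D1:**
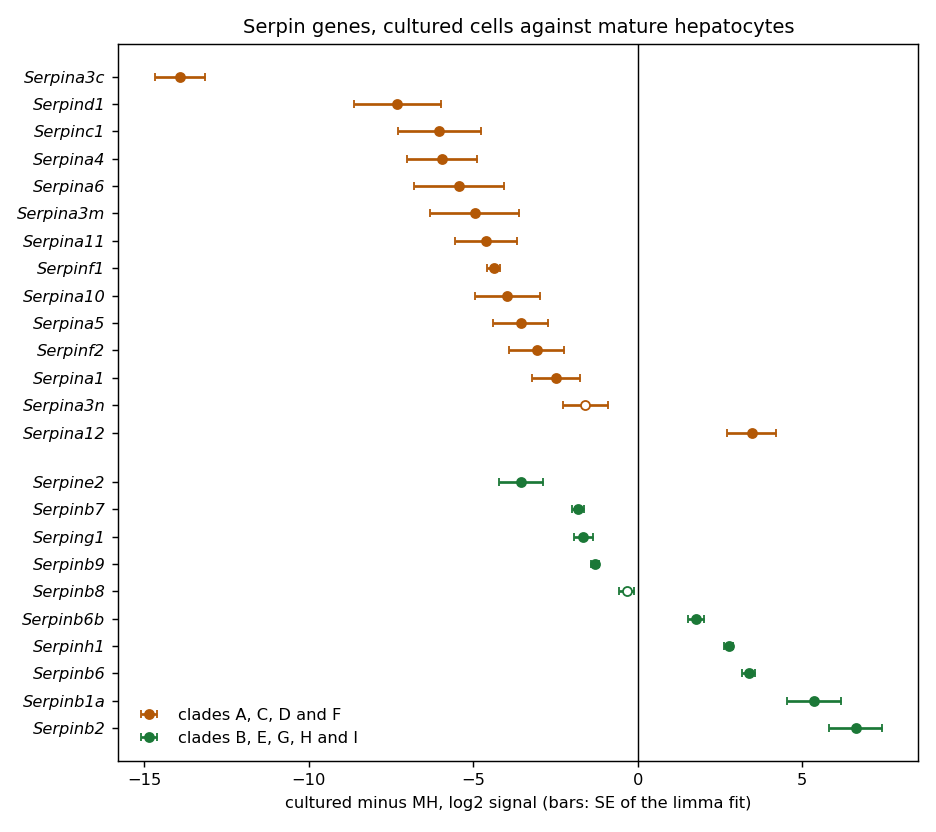
Log2 difference, cultured (9 arrays) minus MH (3 arrays), for 24 of the serpin genes tested, with bars for the SE of the limma fit; clades A, C, D and F stand above clades B, E, G, H and I, and open points did not pass an adjusted p of 0.05. Of the upper set only Serpina12 lies right of 0; MH was not well above background for Serpina12, Serpinb1a and Serpinb2, whose points are differences of measured means and not bounds.

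Among inhibitors of clotting proteases, Serpinc1 (antithrombin) had cultured levels from -4.33 through a median of -0.46 to 2.05, against 5.55, 5.49 and 5.57 on MH. Every cultured array was below every MH array. The difference was -6.03 ± 1.26 log2 (SE, limma adjusted p = 0.00146), and a second Serpinc1 probe gave -6.05. Serpind1 (heparin cofactor II), which blocks thrombin, lay between -7.72 and -0.34 with a median of -3.96 on cultured arrays, against 4.10, 3.94 and 4.11 on MH. It fell by 7.30 ± 1.33 (adjusted p = 0.000587), and the groups did not overlap. Serpina10, the protein Z-dependent inhibitor of factor Xa, fell by 3.97 ± 0.98 (adjusted p = 0.00409) and Serpina5, the protein C inhibitor, fell by 3.56 ± 0.83 (adjusted p = 0.00294). Serpina5 was well above background on 3 of 9 cultured arrays and 3 of 3 MH arrays. On LN511, where it was not well above background on any array, it was at least 8.75-fold lower than on MH (limma adjusted p = 0.00731).

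Serpinf2 (alpha-2-antiplasmin), the main plasma inhibitor of plasmin, had levels from -0.78 through a median of 1.30 to 2.49 on cultured arrays, against 4.17, 3.46 and 4.31 on MH. It fell by 3.06 ± 0.84 (adjusted p = 0.00714), with no overlap. Its neighbour Serpinf1 (PEDF), a serpin without inhibitory activity that restrains blood vessel growth, was more even across arrays than the clotting inhibitors. Its level was 1.73, 1.00 and 0.64 on LN111, 0.90, 1.13 and 0.99 on LN511 and 1.15, 0.97 and 1.26 on Mat, against 5.52, 5.31 and 5.54 on MH. All cultured arrays lay within a narrow band far below MH, and the difference was -4.37 ± 0.19 (adjusted p = 2.29e-08).

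Serpina1 (alpha-1-antitrypsin), the plasma inhibitor of neutrophil elastase, had 6.25, 3.95 and 4.87 on LN111, 6.58, 3.55 and 5.95 on LN511 and 5.88, 3.64 and 6.22 on Mat, against 7.70, 7.52 and 7.85 on MH. All cultured arrays were lower than all MH arrays, with replicate 2 of each coating lowest. It fell by 2.48 ± 0.72 (adjusted p = 0.0103), a call that was lost after quantile scaling (-1.11, adjusted p = 0.221) and in unscaled values (-1.44, adjusted p = 0.0604). Serping1 (C1 inhibitor), which blocks the first proteases of complement and the kallikrein of plasma, had cultured levels from 4.18 through a median of 5.14 to 5.75, against 6.79, 6.55 and 6.66 on MH. It fell by 1.66 ± 0.28 (adjusted p = 0.000377), and that call too was lost after quantile scaling (-0.48, adjusted p = 0.17) and in unscaled values (-0.61, adjusted p = 0.0749).

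The Serpina3 genes are rodent relatives of human alpha-1-antichymotrypsin, and they ranged from the largest decrease of the family to no call. Serpina3c lay between -8.23 and -4.00 with a median of -7.51 on cultured arrays, against 7.32, 7.31 and 7.55 on MH, and was well above background on 3 of 9 cultured arrays. The fitted difference was -13.92 ± 0.76 (adjusted p = 8.93e-08), and on Mat, where it was not well above background on any array, it was at least 15126-fold lower than on MH (adjusted p = 3.29e-07). Serpina3m fell by 4.96 ± 1.36 (adjusted p = 0.00735). Serpina3n, an acute phase member, had 6.35, 5.87 and 6.98 on LN111, 6.56, 2.76 and 6.13 on LN511 and 6.04, 4.85 and 6.33 on Mat, against 7.40, 7.29 and 7.37 on MH. The groups did not overlap, but the difference of -1.59 ± 0.69 did not pass (adjusted p = 0.0575). Without LN511 replicate 2, the array far below the others, it was -1.19 and passed (adjusted p = 0.00857). It also passed without LN511 replicate 1 (adjusted p = 0.0254) or replicate 3 (adjusted p = 0.0442).

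Serpina6 (corticosteroid-binding globulin), which carries glucocorticoids and blocks no protease, was at -1.40, -6.08 and -4.83 on LN111, 1.34, -4.37 and -0.47 on LN511 and -0.17, -4.55 and 0.01 on Mat, against 3.14, 2.98 and 3.37 on MH. Its spread among cultured arrays was among the widest of the family, yet no cultured array reached MH, and it fell by 5.44 ± 1.37 (adjusted p = 0.00444). Serpina4 (kallistatin in humans, an inhibitor of tissue kallikrein) fell by 5.94 ± 1.07 (adjusted p = 0.00054) and Serpina11 fell by 4.61 ± 0.94 (adjusted p = 0.00123).

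Serpina12 (vaspin), which blocks a kallikrein and is known from fat tissue, was the single member of its set that was higher in cultured cells. Its levels were -1.59, -2.85 and -3.03 on LN111, -3.32, -7.90 and -6.27 on LN511 and -3.55, -4.51 and -3.31 on Mat, against -7.44, -7.73 and -7.32 on MH, where no array was well above background. LN111 and Mat lay above MH on all arrays, whereas LN511 replicate 2 lay below every MH array. The increase was at least 2.41-fold (limma adjusted p = 0.00196). It did not pass after normexp background correction (0.73, adjusted p = 0.0783) or with the slide as a block (2.90, adjusted p = 0.105).

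**Figure D2:**
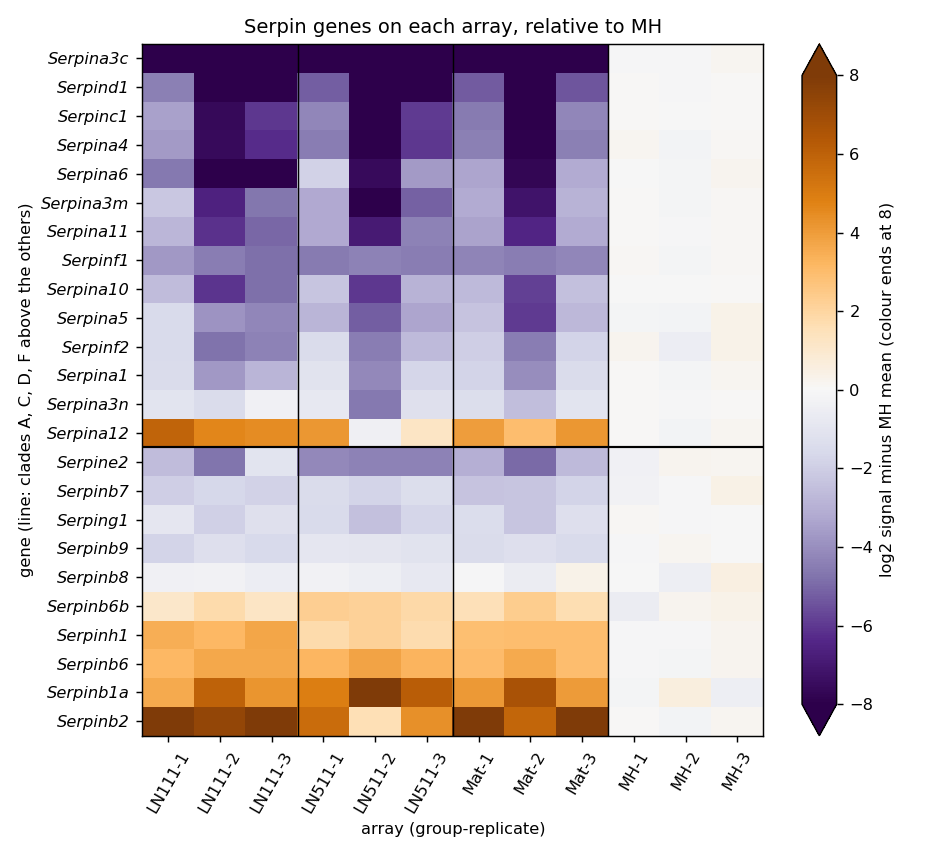
Log2 signal minus the MH mean of the same gene on each of the 12 arrays, for 24 of the serpin genes tested; genes above the line are clades A, C, D and F, and the colour ends at 8 in either direction. Except for Serpina12, every gene of the upper block is below MH on all 9 cultured arrays.

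Outside the plasma clades, Serpinb2 and Serpine2, both inhibitors of plasminogen activators, moved in opposite directions. Serpinb2 (PAI-2), an inhibitor of urokinase found mostly inside cells, was at least 25.1-fold higher (adjusted p = 3.26e-05), with 2.00, 0.09 and 1.98 on LN111, -1.67, -5.70 and -2.93 on LN511 and 0.92, -1.45 and 0.83 on Mat, against -7.22, -7.52 and -7.10 on MH. It was above MH on all 9 cultured arrays and lowest on LN511. Serpine2 (protease nexin-1), which binds thrombin and plasminogen activators at the cell surface, moved the other way, at -8.64 to -4.70 with a median of -7.82 on cultured arrays, against -3.97, -3.45 and -3.50 on MH. It fell by 3.55 ± 0.67 (adjusted p = 0.000743) and was well above background on 3 of 9 cultured arrays.

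Serpinh1 had 2.12, 1.82 and 2.39 on LN111, 0.41, 0.83 and 0.40 on LN511 and 1.55, 1.60 and 1.65 on Mat, against -1.45, -1.45 and -1.13 on MH. Every cultured array was above MH, in the order LN111, Mat, LN511 without overlap between the coatings. It rose by 2.76 ± 0.15 (adjusted p = 7.7e-08), and a second probe gave 3.21.

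The clade B serpins, mostly inhibitors of proteases that escape into the cytoplasm, split. Serpinb1a, a relative of the human leukocyte elastase inhibitor, had -2.80, -0.42 and -2.18 on LN111, -1.48, 2.16 and -0.26 on LN511 and -2.28, 0.28 and -2.36 on Mat, against -6.53, -5.78 and -6.89 on MH, where it was not well above background. It was at least 19.3-fold higher in cultured cells (adjusted p = 0.00017), and replicate 2 was the highest array of each coating. Serpinb6, whose human relative blocks cathepsin G, had 0.75 to 1.56 with a median of 1.05 on cultured arrays, against -2.27, -2.39 and -1.96 on MH, and rose by 3.37 ± 0.19 (adjusted p = 1.15e-07). Its relative Serpinb6b rose by 1.77 ± 0.25 (adjusted p = 9.46e-05).

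Serpinb7 (megsin) fell by 1.82 ± 0.18 (adjusted p = 7e-06). This rests on 1 probe, since a second Serpinb7 probe was not well above background on any cultured or MH array. Serpinb9, the inhibitor of granzyme B that shields cells from cytotoxic lymphocytes, had -1.24, -0.72 and -1.03 on LN111, -0.33, -0.40 and -0.54 on LN511 and -0.91, -0.72 and -0.96 on Mat, against 0.47, 0.68 and 0.49 on MH. By this brighter probe it fell by 1.31 ± 0.13 (adjusted p = 5.8e-06) with no overlap. Its second probe, printed above, differed by 0.88 in the opposite direction, the mean of both probes by -0.21 (adjusted p = 0.383), and the unscaled value was -0.26 (adjusted p = 0.351), so the direction of Serpinb9 rests on the probe. Serpinb8, whose human relative blocks furin, did not pass at -0.33 ± 0.23 (adjusted p = 0.216). Its second probe gave -1.84, and its sign turned in unscaled values (0.71, adjusted p = 0.0203).

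Set against MH one coating at a time, the counts were close to one another. LN111 had 7 members higher and 16 lower, beside 66.8% of all genes called (27% higher, 39.8% lower). LN511 had 6 higher and 17 lower, beside 67.6% of all genes (31.1% higher, 36.5% lower). Mat had 7 higher and 16 lower, beside 67.3% of all genes (26.2% higher, 41% lower). In unscaled values the Mat split was 8 higher and 7 lower. These comparisons share the MH arrays, so their likeness is not separate evidence. Serpina12 and Serpina3n passed on some coatings and not on others. Serpina12 was at least 7.04-fold higher on LN111 (adjusted p = 0.00079) and at least 2.86-fold higher on Mat (adjusted p = 0.00502). On LN511 it did not pass (limma adjusted p = 0.136). There it was well above background on 1 of 3 arrays, against 0 of 3 on MH, and no size is given. Serpina3n passed on LN511 (-2.21, adjusted p = 0.0383) and not on LN111 (-0.95, adjusted p = 0.336) or Mat (-1.62, adjusted p = 0.112). The LN511 value rests in part on replicate 2: without the arrays numbered 2 it was -1.01 (adjusted p = 0.00676), beside -0.69 on LN111 (adjusted p = 0.0342) and -1.17 on Mat (adjusted p = 0.00339). Serpina3n itself did not pass between LN111 and LN511 (1.25, adjusted p = 0.392).

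The medians of clades A, C, D and F were -4.49 on LN111, -4.39 on LN511 and -4.34 on Mat, and those of the other clades 1.37, 1.89 and 1.84. Within slide 1, where Mat replicates 1 and 2 stand beside MH, 25 of 26 members passed, beside 62.1% of all genes tested there, among them Serpinc1 at -6.44 ± 1.10 (adjusted p = 0.00488), Serpina1 at -2.93 ± 0.65 (adjusted p = 0.0125), Serpinh1 at 2.91 ± 0.18 (adjusted p = 0.000217) and Serpina3n at -1.91 ± 0.37 (adjusted p = 0.00751). With the slide as a block 22 members passed for all cultured groups, beside 52.9% of all genes. In the same fit 18 passed for LN111 (43.0% of all genes), 16 for LN511 (44.3%) and 23 for Mat (62.4%). Only Mat replicate 3 links the slides in that fit.

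Scaling bears on these differences because the cultured arrays were brighter. The median difference of all genes, -0.18 here, was -0.40 with normexp, -0.15 with quantile scaling and 0.86 without scaling, and of all genes called 42.3% were higher here, against 26.8%, 43.7% and 78.1% in those 3 settings. Relative to each median, Serpinc1 at -4.99 and Serpinf1 at -3.33 in unscaled values were far below. These genes do not stand for the whole set: Serpina1 and Serping1 lost their calls in unscaled values. The split of members between Mat and MH was then more even, as given above.

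Markers of Kupffer cells and endothelium moved together with the plasma serpins. Of 7 stellate cell and fibroblast markers tested, 2 were higher and 0 lower in cultured cells. A sum of 8 Kupffer cell and macrophage markers was -2.61 to 0.59 on cultured arrays and 4.35 to 4.51 on MH, with Marco and Cd5l not well above background on any cultured array. A sum of 7 endothelial markers was -3.38 to -0.68 on cultured arrays and 3.15 to 3.27 on MH, with Lyve1, Pecam1 and Plvap not well above background on any cultured array. Their part in the serpin differences was not tested. A sum of 6 genes listed as mesothelial markers, Krt8 among them, was 4.53 to 6.18 on cultured arrays and 1.27 to 1.49 on MH. Of these, Wt1, Gpm6a and Upk1b were not well above background on any MH array. A sum of 6 squamous epithelium markers was 2.01 to 3.78 on cultured arrays and 0.37 to 0.43 on MH. Krt5 and Ivl were not well above background on any cultured array. The part of both marker lists in the increases, those of clade B included, was likewise not tested.

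Replicates of the cultured groups differed widely in the serpins of clades A, C, D and F. Relative to the mean of its own group, the median of the 13 such genes that were tested and not Serpina12 was -1.45 on LN111 replicate 2, -2.31 on LN511 replicate 2 and -2.17 on Mat replicate 2. It was 1.93, 1.45 and 0.99 on replicate 1 of LN111, LN511 and Mat, and -0.38, 0.59 and 1.17 on replicate 3. On MH the same medians stayed between -0.13 and 0.08. Serpinb1a moved the opposite way, at 1.38, 2.02 and 1.74 on replicate 2 of LN111, LN511 and Mat. Serpinf1 stayed within -0.16 and 0.12 on those 3 arrays.

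**Figure D3:**
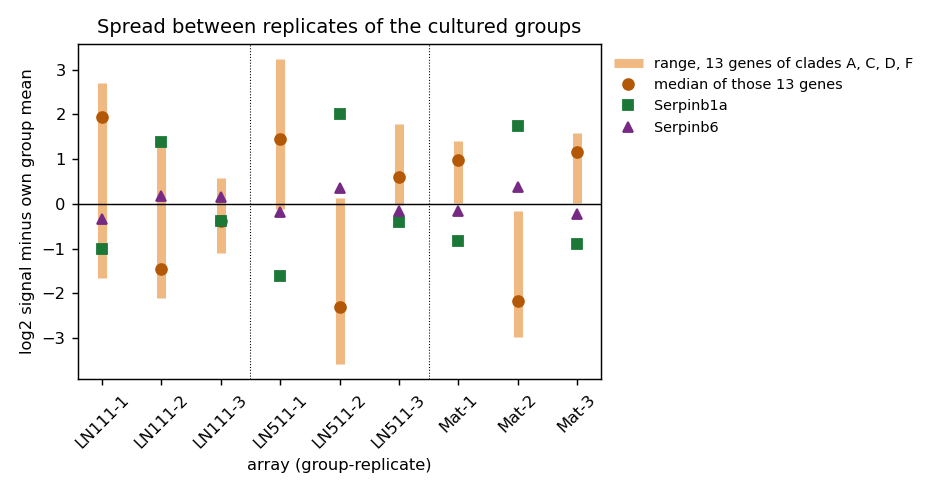
Log2 signal minus the mean of the array's own group on the 9 cultured arrays: the range and median of 13 serpin genes of clades A, C, D and F (bar and circle), Serpinb1a (square) and Serpinb6 (triangle). Replicate 2 of each coating has the lowest median (-1.45, -2.31 and -2.17) and the highest Serpinb1a.

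With the 3 arrays numbered 2 left out, a choice made after these values were seen, 25 members passed between cultured cells and MH, beside 70.4% of all genes. Serpina1 then fell by 1.73 ± 0.31 (adjusted p = 0.00161) and Serpinc1 fell by 4.74 ± 0.58 (adjusted p = 0.000217). Across the 9 cultured arrays the genes most like Serpina1 were Cyp4f40 (Pearson r = 0.994), Itih4 (0.991), Itih1 (0.990), C3 (0.990) and Cyp2b3 (0.989). Itih1 and Itih4 encode heavy chains of plasma inter-alpha-trypsin inhibitors and C3 the central complement component. Among members, Serpina10 (0.986) and Serpina11 (0.974) were closest to Serpina1, and Serpinb6 (-0.871) was the most opposed. These values describe 9 arrays that share 3 coatings and, in part, the drop on replicate 2.

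The second question was whether the coating changed serpins within 3 h. In the fit of the 9 cultured arrays 22 members entered. Between LN111 and LN511, 4 passed, 3 higher and 1 lower, beside 17.9% of all 17905 genes (6.13% higher, 11.8% lower). Serpinh1, at 2.12, 1.82 and 2.39 on LN111 against 0.41, 0.83 and 0.40 on LN511, was higher by 1.56 ± 0.18 (limma adjusted p = 0.0031), with 1.64 by its second probe. The groups did not overlap, and the call held under each of the 17 alternatives run.

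Serpinb2, at 2.00, 0.09 and 1.98 on LN111 against -1.67, -5.70 and -2.93 on LN511, was higher on LN111 by 4.79 ± 1.10 (adjusted p = 0.0225). The lowest LN111 array was still above the highest LN511 array. The call was lost without LN111 replicate 1 (adjusted p = 0.0671), LN111 replicate 3 (adjusted p = 0.0716) or LN511 replicate 3 (adjusted p = 0.0565). Serpinb9 was lower on LN111 by 0.57 ± 0.16 (adjusted p = 0.0438), and its second probe was lower too, by 1.11. That call was lost under 9 alternatives, among them unscaled values (-0.08, adjusted p = 0.891). With normexp 3 members passed, all higher, and in unscaled values 4 passed, all higher. Serpina12 missed the threshold at 3.34 ± 1.04 (adjusted p = 0.061), although its groups did not overlap, and it passed under 4 alternatives (adjusted p = 0.0107 to 0.0478). LN511 was well above background for it on 1 of 3 arrays.

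**Figure D4:**
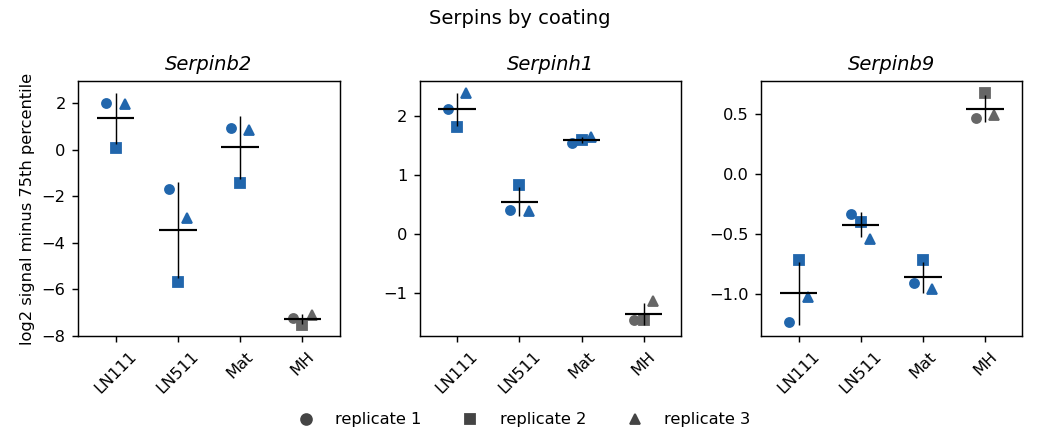
Relative log2 signal of Serpinb2, Serpinh1 and Serpinb9 on each array by group, with the mean and SD (n = 3) as lines and replicates as symbols. Serpinb2 and Serpinh1 are lowest on LN511 among the coatings, and Serpinb9 is highest there.

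Between LN511 and Mat, 1 member passed, beside 8.22% of all genes (7.07% higher, 1.16% lower). Serpinh1, at 0.41, 0.83 and 0.40 on LN511 against 1.55, 1.60 and 1.65 on Mat, was lower by 1.05 ± 0.18 (adjusted p = 0.0129). The groups did not overlap. That call no longer passed when LN511 replicate 3 (adjusted p = 0.0504), Mat replicate 1 (0.0513) or Mat replicate 3 (0.0517) was left out, or with the slide as a block (-1.10, adjusted p = 0.142). Within slide 2 the value was -1.10 too (adjusted p = 0.22), but there Mat is a single array, assumed to vary like the other groups. Serpinb2 (-3.53 ± 1.10, adjusted p = 0.0998) missed the threshold without overlap between groups. The check of pairing did not show that the arrays numbered 3 belong together. With the replicate number as a block all the same, 4 members passed, beside 13.3% of all genes. Among them were Serpinb2 (adjusted p = 0.00406), Serpinh1 (adjusted p = 0.0192) and, higher on LN511, Serpinb1a (1.59, adjusted p = 0.019).

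Between LN111 and Mat, 0 members passed, as did 0% of all genes in limma. Without adjustment, 1 member (Serpinh1, 0.51 ± 0.18, limma adjusted p = 0.356) and 2180 genes had a limma p under 0.05. In order of level, Serpinh1 stood highest on LN111, then Mat, then LN511 and MH, and the step from LN111 to Mat did not differ beyond the spread after adjustment. Serpina12 passed between coatings only under alternatives, 4 of them between LN111 and LN511 and 2 between LN511 and Mat. In the fit with no alternative applied, no gene of clades A, C, D or F passed between coatings. Their replicate spread was wide: Serpina1, for example, differed by -0.34 between LN111 and LN511, with SDs of 1.16 on LN111 and 1.60 on LN511, so these data cannot show a difference of that size.

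Stellate cell and fibroblast markers moved with Serpinb2 and Serpinh1 between coatings. The sum of all 8 was 3.01 to 4.49 on LN111, 0.15 to 1.94 on LN511, 1.74 to 3.34 on Mat and 1.49 to 1.95 on MH, and each of the 8 was well above background on at least 1 cultured array. Between LN111 and LN511, Acta2 was higher by 3.88 (adjusted p = 0.00216) and Pdgfrb was higher by 4.32 (adjusted p = 0.00418). Their part in the differences of these serpins was not tested. Across the 9 cultured arrays the genes most like Serpinh1 were Adamts7 (r = 0.989), Ptpn14 (0.989), Elk3 (0.986), Smim29 (0.984) and St6galnac4 (0.980), and Serpinb2 had an r of 0.785 with it.

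The proteases and partners of these serpins were described by lists. Beside every list count against MH given below, 30.8% of all genes tested were higher and 42% lower in cultured cells. Counts near those shares do not set a list apart. Of 15 listed proteases, most of them plasma proteases held by serpins, 13 fell and 0 rose in cultured cells, with a median of -4.81. Those that fell included Klkb1, plasma prekallikrein (-6.36 ± 0.20, adjusted p = 2.77e-09), and F11, factor XI (-7.36 ± 0.87, adjusted p = 2.58e-05). They also included Proc, protein C (-4.65 ± 0.58, adjusted p = 4.06e-05), and Tmprss6, which is bound to membranes (-2.71 ± 0.29, adjusted p = 1.35e-05). Of 9 genes listed for plasminogen activation, with Thbd and Procr of the protein C pathway among them, 6 rose and 2 fell. Lrp1, given below, was among those that fell. Plat, tissue plasminogen activator, rose by 7.44 ± 0.17 (adjusted p = 6.69e-10), and the surface receptor pair S100a10 and Anxa2 rose by 6.89 and 6.49. Procr, the protein C receptor, was at least 9.99-fold higher (adjusted p = 6.08e-07).

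Of 15 measured collagens and collagen-modifying genes that work with Serpinh1, 10 rose and 2 fell. Col4a1, a basement membrane collagen, rose by 4.75 ± 0.23 (adjusted p = 4.4e-08), Col1a1 by 9.96 ± 0.62 (adjusted p = 2.35e-07) and Crtap, a cofactor of prolyl hydroxylation, by 1.60 ± 0.16 (adjusted p = 6.31e-06), while Plod2, a lysyl hydroxylase, was at least 35.6-fold higher (adjusted p = 7.4e-07). Col1a1 was well above background on 1 of 3 MH arrays. Between LN111 and LN511 9 of these genes were higher and 0 lower, beside 6.13% of all genes higher and 11.8% lower. Between LN511 and Mat 0 were higher and 6 lower, beside 7.07% of all genes higher and 1.16% lower. Of the 7 stellate and fibroblast markers tested, which share Col3a1 with these genes, 3 were higher and 0 lower between LN111 and LN511, and 0 were higher and 3 lower between LN511 and Mat, and their part in the collagen differences was not tested.

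Of 8 intracellular and leukocyte proteases tested, 3 rose and 3 fell. Gzma, a granzyme, fell by 3.52 ± 0.58 (adjusted p = 0.000282) and Ctss, cathepsin S, fell by 5.93 ± 1.10 (adjusted p = 0.000661), beside the fall of the Kupffer cell markers given above, whose part was not tested. Casp8, an initiator caspase, rose by 1.11 ± 0.20 (adjusted p = 0.000508), and Ctsb fell by 0.49 ± 0.14 (adjusted p = 0.0104). Of 6 trypsin-like proteases, most of them bound to membranes, 4 rose and 1 fell, with St14 (matriptase) rising by 5.52 ± 0.28 (adjusted p = 5.62e-08), Htra1 by 2.48 ± 0.26 (adjusted p = 1.22e-05), Prss23 by 2.44 ± 0.20 (adjusted p = 1.58e-06), and Furin, a proprotein convertase, falling by 1.77 ± 0.12 (adjusted p = 3.28e-07).

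Of 5 receptors that clear serpin-protease complexes, 2 rose and 2 fell. Vldlr was at least 1.33-fold higher (adjusted p = 2.44e-06) and Lrp8 rose by 3.20 ± 0.43 (adjusted p = 6.89e-05), whereas Lrp1, the hepatocyte receptor for such complexes, fell by 1.26 ± 0.27 (adjusted p = 0.00171) and Lrp2 fell by 2.34 ± 0.41 (adjusted p = 0.000479). Of 9 regulators known for serpin promoters, 1 rose and 6 fell, among them Cebpa (-3.77 ± 0.23, adjusted p = 2.13e-07), Foxa1 (-2.42 ± 0.21, adjusted p = 2.73e-06) and Nr3c1, the glucocorticoid receptor (-2.33 ± 0.26, adjusted p = 1.78e-05). The regulator that rose was Hsf1 (0.96 ± 0.12, adjusted p = 4.87e-05), the heat shock factor. It was named after its value was seen.

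The serpin genes lie mostly in clusters. Beside the cluster counts given here, 30.8% of all genes tested were higher and 42% lower in cultured cells. The few genes tested on chromosomes 13 and 17 do not set those clusters apart. In rn4 the probes of all 12 clade A genes lay on chromosome 6 between 127887685 and 128469256, a stretch of 582 kb in which 10 were tested, 8 fell and 1 rose. The gene that rose, Serpina12, lay between the untested Serpina9 and Serpina4, which fell. On chromosome 13, 9 clade B genes spanned 683 kb (13057470 to 13740877), of which 3 were tested, with Serpinb2 higher and its neighbour among those tested, Serpinb7, lower. On chromosome 17, 5 clade B genes spanned 625 kb (37334213 to 37959003), of which 4 were tested, 3 higher and Serpinb9 lower by its brighter probe. Serpinf1 and Serpinf2, 34.4 kb from end to end on chromosome 10, both fell.

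**Figure D5:**
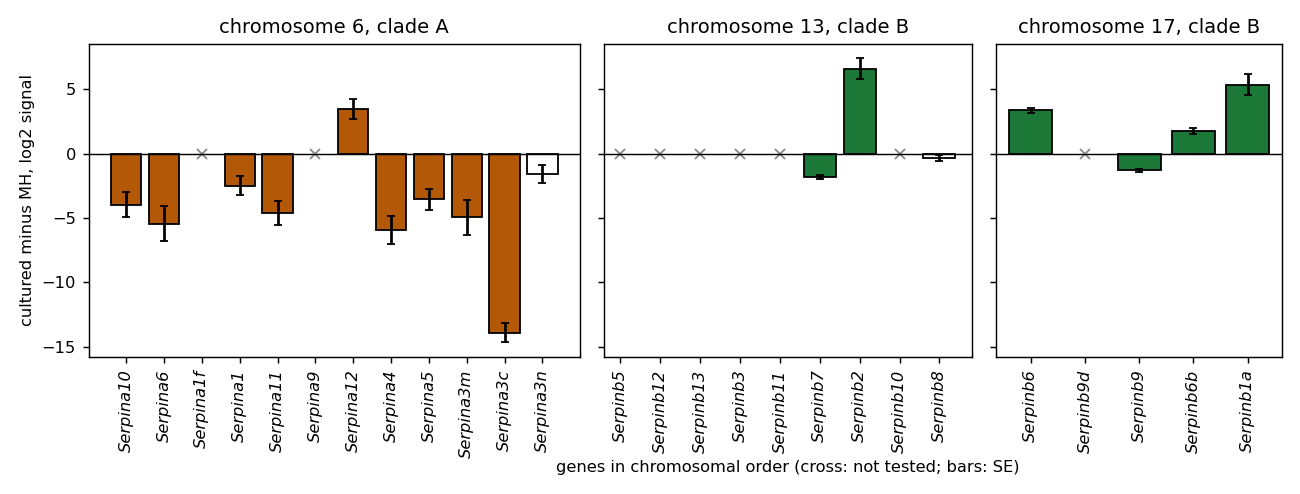
Log2 difference, cultured minus MH, with SE bars for serpin genes in chromosomal order in 3 clusters; filled bars passed an adjusted p of 0.05, open bars did not, and crosses mark genes not tested. Decreases fill the chromosome 6 cluster except at Serpina12, while the clade B clusters on chromosomes 13 and 17 hold differences of both signs.

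Promoter sequences of 300 bases around the annotated start were found in RefSeq (build GRCr8) for 29 of the 37 members, and not for Serpina3c, Serpina6, Serpina10, Serpinb8, Serpinb12, Serpind1 and Serping1, among others. They are shown for Serpinh1 and Serpinb2, which differed between coatings, and for Serpinc1, which fell. Whether the annotated starts are those in use was not checked, so a stretch shown may not be the working promoter. Capitals mark a heat shock element in Serpinh1, an AP-1 motif (TGANTCA) in Serpinb2 and a C/EBP motif (TTGCNNAA) in Serpinc1.
Serpinh1, chr1:163062927-163063226, minus strand: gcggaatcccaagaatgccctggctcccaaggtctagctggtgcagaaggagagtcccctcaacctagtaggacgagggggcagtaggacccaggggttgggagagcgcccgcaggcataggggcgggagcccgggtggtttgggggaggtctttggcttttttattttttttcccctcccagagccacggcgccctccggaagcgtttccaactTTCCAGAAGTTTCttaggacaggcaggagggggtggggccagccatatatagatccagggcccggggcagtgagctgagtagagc
Serpinb2, chr13:24055771-24056070, plus strand: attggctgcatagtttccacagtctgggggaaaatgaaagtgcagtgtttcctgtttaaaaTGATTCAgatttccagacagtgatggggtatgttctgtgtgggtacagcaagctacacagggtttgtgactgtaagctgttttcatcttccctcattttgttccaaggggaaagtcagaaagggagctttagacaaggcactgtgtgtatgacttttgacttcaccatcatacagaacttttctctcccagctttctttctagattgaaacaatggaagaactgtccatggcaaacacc
Serpinc1, chr13:75790308-75790607, plus strand: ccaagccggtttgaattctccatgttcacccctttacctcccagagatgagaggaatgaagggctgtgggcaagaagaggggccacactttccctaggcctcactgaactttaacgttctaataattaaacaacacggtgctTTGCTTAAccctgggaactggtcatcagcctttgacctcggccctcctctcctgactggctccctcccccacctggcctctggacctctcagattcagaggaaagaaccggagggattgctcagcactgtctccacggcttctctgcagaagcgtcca
Motifs chosen after the differences were known were searched on both strands, and a match is a description of letters, not a binding site. The heat shock element was found in 1 of 29 serpin promoters, Serpinh1, where it begins at -35 and reads on the opposite strand, and in 0.736% of all 27457 promoters. AP-1 was found in 4 of 17 promoters of clades B, E, H and I (Serpinb2, Serpinb3, Serpinb5 and Serpinb7) and in 0 of 12 of clades A, C and F, against 7.33% of all. C/EBP was found in Serpina4, Serpina12, Serpinc1, Serpinb7 and Serpinb10, 5 of 29, against 10.5% of all. The HNF4 motif (CAAAGTCCA) was found in 0 (0.375% of all), the TATA box (TATAAA) in 5 (14.3% of all) and CCAAT in 8 (37.7% of all). None of the 3 capitalised motifs overlapped another motif of the search.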

How the data were processed

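The arrays held rat liver cell RNA, 3 per group (LN111, LN511, Mat and MH), from 100 ng of total RNA labelled with Cy3 per the labels' protocols. Images were read with Agilent Feature Extraction 10.7, per the submitters' processing notes. Per the file headers, background was subtracted from each spot, trends across the array were removed and low signals were replaced by surrogates, and the resulting processed signal is a linear intensity. The authors' deposited value table holds the same linear intensity: no value differed by more than 0.0072 on the log2 scale. The medians of its columns were 61.8, 59.0 and 45.1 for LN111 arrays, 45.5, 49.0 and 43.6 for LN511 arrays, 85.5, 90.9 and 57.5 for Mat arrays and 27.5, 27.6 and 23.6 for MH arrays, and it is neither centred nor directional.

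Controls were dropped, and the 75th percentile of all other spots of an array was taken from the log2 intensity. Outlier-marked spots were dropped after that step, and the remaining spots of a probe were averaged. The usable probe of highest mean stood for a gene. Other genes were named through the RefSeq table supplied where their accession or symbol matched. limma 3.58.1 in R 4.3.3 tested genes two-sided, in 1 fit of 12 arrays for comparisons with MH and 1 of 9 arrays for coatings, with Benjamini-Hochberg adjustment over all genes tested, and was tested on simulated data. Errors are SE of the fit. For a bound ("at least N-fold"), the probe of the dim group was given, per array, its own signal or the dimmest signal still well above background there, whichever was larger, and the mean of these was taken from the bright group's mean. The members, lists and named genes were chosen with earlier results of these data known. Named genes were all members, up to 4 genes of smallest p per partner list and the 5 genes most like Serpina1 and Serpinh1.

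Replicate numbers recur in all groups. Deviations from group means correlated between same-numbered LN511 and Mat arrays at 0.536, 0.722 and 0.128, and that comparison is given with the number as a block too. Unlike numbers reached 0.535 (LN511 replicate 1 with Mat replicate 3) and 0.203 (LN511 replicate 3 with Mat replicate 1). The arrays numbered 3 are thus not shown to be a pair. Same-numbered arrays of LN111 and LN511 correlated at 0.470, 0.539 and 0.0665, and those of LN111 and Mat at 0.546, 0.709 and 0.0921. Alternatives covered background correction (normexp, offset 50), scaling (quantile, none), dim signals, filters, probes, outlier marks, the value table, slide, replicate block and leaving out arrays. No columns of other samples were present. Some genes that enter the counts are not reported here.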

Additional observations from a re-analysis of the deposited data

Results flagged for a closer look

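Differences between coatings that passed the limma test between 2 cultured groups are repeated here because the groups differ under the same culture. Between LN111 and LN511 the log2 differences were 4.79 for Serpinb2, 1.56 for Serpinh1 and -0.57 for Serpinb9. Between LN511 and Mat Serpinh1 differed by -1.05. Groups held 3 arrays each, so single arrays were not screened as outliers.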

How the results depend on the processing

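Counts of serpins passing are given for each setting that moved them by over 1.5 times. The share of all genes called moved with the setting too. Between LN111 and LN511 it was 17.9% here and 27.2% with the replicate block. For most settings that share is not given below, so a shift in these counts is not a result about serpins. With probes required to be well above background on every array, which left 14 members to test with MH, 14 passed between cultured cells and MH, 13 for LN111, 14 for LN511 and 13 for Mat. Without scaling 15 passed between Mat and MH. Between LN511 and Mat, where 1 passed, 2 did with normexp, 7 without scaling, 2 without a filter, 4 with the replicate block, 0 with the slide as a block, 0 within slide 2 and 3 without the arrays numbered 2, the last chosen after seeing the data. Between LN111 and LN511 the replicate block gave 9 in place of 4, beside 27.2% of all genes, and among the 9 were 2 of clade A, Serpina6 (-2.94, limma adjusted p = 0.0248) and Serpina12 (3.34, limma adjusted p = 0.0191). Arrays correlated best with their own number in 14 of 18 cases, a hint from the data and not from the design. With the block 24 passed between cultured cells and MH, 23 for LN111, 23 for LN511, 24 for Mat and 0 between LN111 and Mat. Leaving out arrays (1 in turn, or the 3 numbered 2) gave 23 to 25 (cultured against MH), 20 to 25 (LN111 against MH), 19 to 25 (LN511 against MH), 18 to 23 (Mat against MH), 0 to 0 (LN111 against Mat), 0 to 3 (LN511 against Mat) and 2 to 6 (LN111 against LN511). Without scaling the sign turned for Serpinb8 between cultured cells and MH (0.71) and for Serpinb6b (-0.83) and Serpinb9 (-0.66) between LN511 and Mat, none of which had passed. Of the values of single genes, 747 kept direction and side of the threshold, 25 lost the call, 26 gained it and 3 turned. The causes were not tested. Signals not above background limit Serpina12, Serpinb1a and Serpinb2 on MH to bounds.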

Other observations

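Several genes with a serpin fold or a later serpin symbol stand under other names on the array and were not among the members. Agt (angiotensinogen), a serpin that gives rise to angiotensin, fell in cultured cells. Its levels were 2.09, 1.18 and 0.12 on LN111, 2.14, -0.49 and 1.19 on LN511 and 1.83, 0.08 and 1.84 on Mat, against 6.76, 6.76 and 6.86 on MH, a difference of -5.68 ± 0.58 (limma adjusted p = 8.96e-06). A probe that the RefSeq table pairs with Serpina3a had -1.18, -1.62 and -0.62 on LN111, -2.56, -7.24 and -4.29 on LN511 and -2.82, -3.58 and -2.75 on Mat, against -7.49, -7.76 and -7.36 on MH, where it was not well above background. It lay above MH on all 9 cultured arrays and passed (limma adjusted p = 0.000252), and LN511 had the lowest mean of the coatings. A second probe of the gene gave the same order of group means. Serpina16, Serpina1fl2, Serpina3j, Serpinb3a, Serpinb6e and Serpinb6el1 were not well above background on all arrays of any group.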
